A study of Mus musculus with 3 samples.

Results

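The amino acid transporter families Slc1, Slc3, Slc6, Slc7, Slc36, Slc38 and Slc43 were followed in muscle stem cells (MuSC, or satellite cells), which repair skeletal muscle. Every gene whose symbol in the annotation of the array begins with one of these 7 family names, an a and a digit was taken, which gave 63 of 18193 genes, read by 125 probe sets. Of these, 60 are carriers or their subunits and 3 (Slc7a6os, Slc36a1os and Slc6a19os) are named for the opposite strand of a carrier gene. FACS-sorted CD34+ α7 integrin+ cells of wild-type C57BL/6 mice at 8 weeks of age were compared in 3 conditions, with 1 Affymetrix array each. The +OSM cells (MuSC +OSM in the figures) had been kept for 3 days in 10% FBS with 100 ng/mL of Oncostatin M (OSM), a cytokine of the interleukin-6 family. The −OSM cells (MuSC −OSM) had been kept for the same 3 days in 10% FBS alone, and fresh MuSC were not cultured. By the study's methods the cells were freed from muscle by collagenase and dispase before sorting, cells stained for CD45, CD11b, CD31 or Sca1 (leukocytes, endothelium and stromal cells) were marked with beads and a dye for removal, and whether mice were pooled is not stated. The methods give a higher serum content than the labels for standard culture. A legend of the study speaks of biological replicates for its OSM data, whereas 1 array a condition was analysed here. There is thus no replicate check, and folds and counts are given without a test.

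Cells take up amino acids through membrane carriers that differ in substrate and in the ion that drives them. Slc7 light chains sit in the membrane bound to an Slc3 heavy chain and exchange one amino acid for another, whereas the cationic members of Slc7 carry arginine and lysine on their own. Slc1 carriers take up glutamate or small neutral amino acids, Slc38 carriers bring in glutamine and alanine with sodium, Slc36 carriers are driven by protons, and Slc43 carriers let large neutral amino acids pass along their gradient. Slc6 carriers take up neurotransmitters, glycine, taurine and creatine with sodium and chloride. In muscle, leucine and arginine brought in this way feed protein synthesis and the kinase complex mTORC1, and quiescent satellite cells are small cells that grow when they are activated.

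The array signal is a MAS5 intensity on a linear scale, and each array had been scaled to the same trimmed mean (198 to 199 here). Signals under 40, the median over the 3 arrays together, were set to this floor before ratios were taken, and a fold that starts from such a signal is a lower bound, written "at least". Median signals were 32 in +OSM cells, 36 in −OSM cells and 53 in fresh MuSC. Signals of satellite cell markers summed to 4736 in +OSM cells, 3753 in −OSM cells and 23566 in fresh MuSC, with 5, 5 and 7 of 7 genes above the floor in that order. In both cultures Cd34 and Calcr were under the floor, whereas Itga7, the gene of the other protein used for sorting, had 1238 in +OSM cells, 1808 in −OSM cells and 499 in fresh MuSC. Committed myogenic markers, with 5 of 5 above the floor on each array, summed to 28984 in +OSM cells, 53547 in −OSM cells and 4114 in fresh MuSC. Both kinds of cultured MuSC thus carried committed cell transcripts beside a lower sum of satellite cell markers, Itga7 excepted. In RNA of whole populations, fewer cells of a type and less RNA per cell cannot be told apart.

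Of the 63 genes, 42 were above the floor on at least 1 array. These were 30 genes in +OSM cells, 33 in −OSM cells and 40 in fresh MuSC. The other 21 genes were under the floor on all arrays, and 11 of them belong to Slc6, 4 to Slc1 or Slc3, 3 to Slc7, 1 to Slc38 and 2 to the genes named for an opposite strand. Among the 42 genes, 20 differed by at least 2-fold in at least 1 of the 3 comparisons. Of the other 22, 12 were above the floor on all arrays and lay within 2-fold by the probe set used for the gene. The other 10 were under the floor on at least 1 array, so that their folds are lower bounds. Larger differences were not detectable for them. At least 2-fold differences from fresh MuSC were shared by both cultures for 9 genes, with 3 higher and 6 lower, and 4 further genes were higher in −OSM cells than in fresh MuSC but within 2-fold in the other comparisons. For these counts of 20, 9 and 4 genes the shares of all genes were not taken, so they are not read as a trait of the families. In single comparisons with fresh MuSC, 15.0% of all measured genes were at least 2-fold higher and 20.4% lower in −OSM cells. In +OSM cells these shares were 13.8% and 17.2%.

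**Figure D1:**
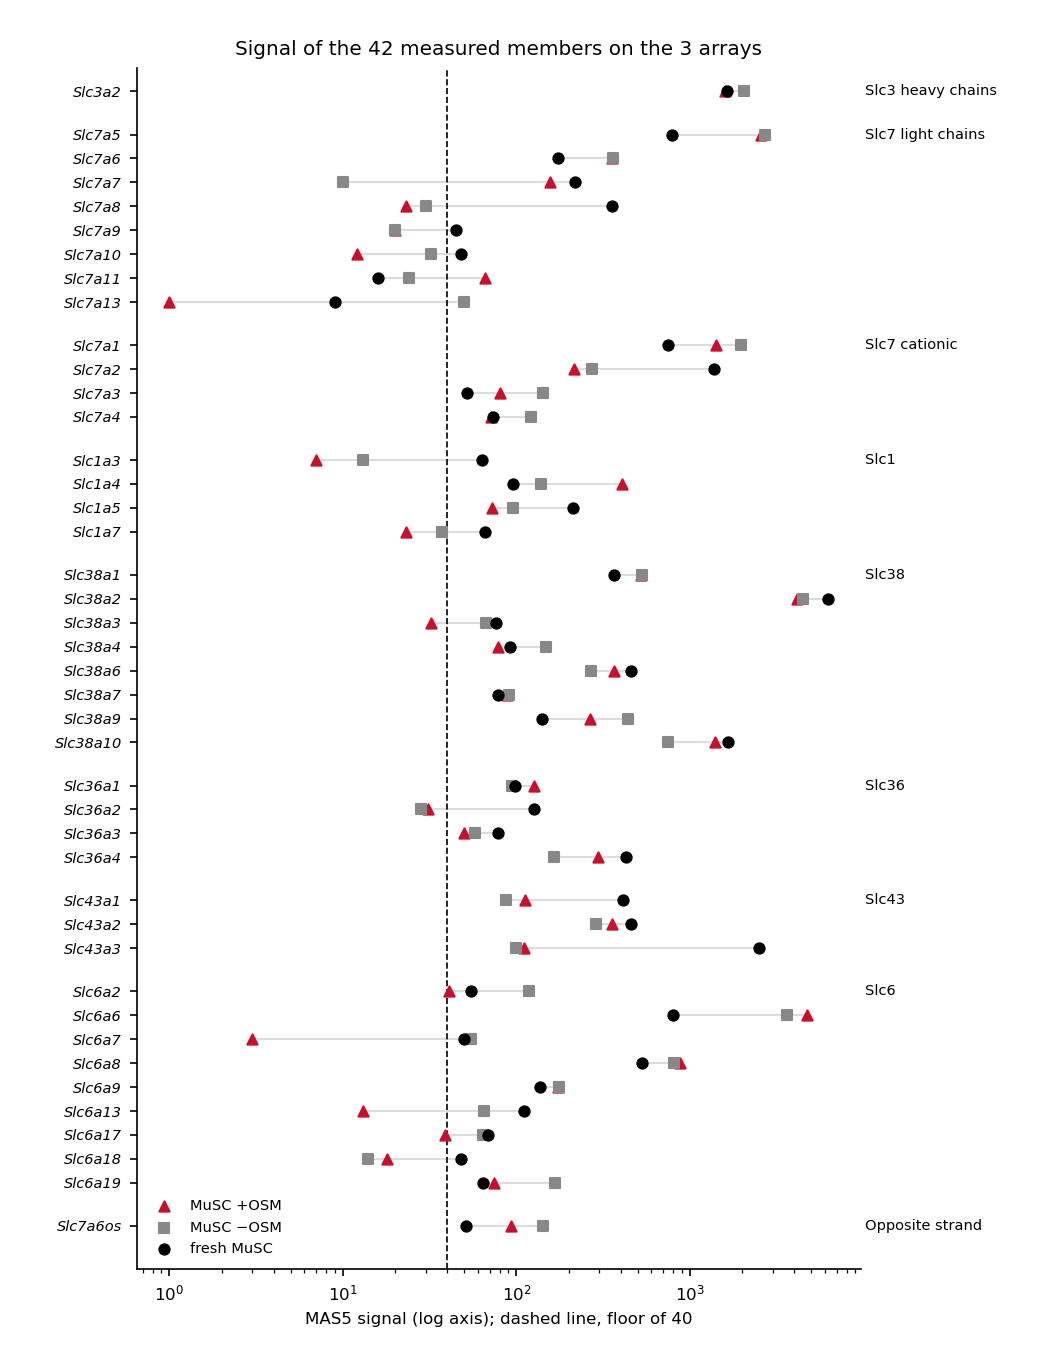
The 42 genes of the 7 families above the floor on at least 1 array, placed by MAS5 signal along a log axis, with MuSC +OSM as red triangles, MuSC −OSM as gray squares and fresh MuSC as black circles, 1 array each. The dashed line marks the floor of 40. Slc43a3 lies at 111 and 100 in the cultures, far left of its 2513 in fresh MuSC, while Slc7a7 is at 10 in MuSC −OSM alone.

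The design first asks what OSM does to cells in culture. Among 35 genes measured in +OSM cells or −OSM cells, Slc7a7 and Slc1a4 were at least 2-fold higher in +OSM cells and Slc6a2 and Slc6a19 at least 2-fold lower. That is 5.71% in either direction, against 6.07% of all measured genes higher and 4.39% lower, so the families held about the share of 2-fold differences found across the array. The median log2 ratio was -0.12, against -0.01 for all genes, and 23 of the 35 genes lay below zero, against 5662 of 11271 over all genes. Centring the arrays on their medians moved the median of all genes to 0.15 and that of the families to 0.00449, so that the families lay below all genes by 0.15 with that scaling, by 0.12 as deposited and by 0.07 after quantile normalization.

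Slc7a7, a light chain that carries cationic amino acids out of the cell in exchange for neutral ones, had the highest ratio with OSM of the 35 genes measured. Its signal was 157 in +OSM cells, 10 in −OSM cells and 219 in fresh MuSC. The level in +OSM cells was at least 3.92-fold above −OSM cells and 1.39-fold below fresh MuSC, so that −OSM cells alone were under the floor. A second probe set of the gene had 91 in +OSM cells, 18 in −OSM cells and 37 in fresh MuSC. It too was above the floor with OSM and under it without, but it did not show the high level in fresh MuSC.

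Slc1a4 carries serine, alanine, cysteine and threonine. It had signals of 405 in +OSM cells, 139 in −OSM cells and 96 in fresh MuSC, a 2.91-fold higher level with OSM than without and 4.22-fold higher than in fresh MuSC. It was the one gene of the 63 at least 2-fold higher in +OSM cells than on both other arrays. Its other probe sets had 171 in +OSM cells, 82 in −OSM cells and 70 in fresh MuSC, and 98, 52 and 12 in the same order. Both were highest with OSM, by 2.09-fold and 1.88-fold over −OSM cells.

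Slc7a11, which brings in cystine for glutathione synthesis in exchange for glutamate, was near the floor. Its signal was 66 in +OSM cells, 24 in −OSM cells and 16 in fresh MuSC, at least 1.65-fold higher with OSM than on either other array. The second probe set was under the floor on all 3 arrays, at 30, 21 and 39 in that order.

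Windows of 300 bases around the transcription starts (250 before and 50 from the start on) were available from RefSeq, on GRCm38.p6, for 46 of the 63 genes. ATF4 acts on genes of amino acid supply through a composite element of C/EBP and ATF factors. Only 1 form of this element, TGATGCAA, was searched, on both strands, so that other forms were not counted. It was found in 4 of the 67 windows of these genes, belonging to Slc7a7 (in a pair of overlapping windows), Slc1a4 and Slc7a11, and in 0.895% of 32851 windows of all genes. The search was made after the signals were known, and a match of letters is neither a site in use nor a cause. The windows are shown because 2 of the 3 are those of the genes called higher with OSM. They lie at chr14:54417895-54418194 for Slc7a7, chr11:20332664-20332963 for Slc1a4 and chr3:50443564-50443863 for Slc7a11, all on the minus strand, and are written along the direction of transcription with the element in capitals, as TTGCATCA where it reads on the opposite strand.
Slc7a7: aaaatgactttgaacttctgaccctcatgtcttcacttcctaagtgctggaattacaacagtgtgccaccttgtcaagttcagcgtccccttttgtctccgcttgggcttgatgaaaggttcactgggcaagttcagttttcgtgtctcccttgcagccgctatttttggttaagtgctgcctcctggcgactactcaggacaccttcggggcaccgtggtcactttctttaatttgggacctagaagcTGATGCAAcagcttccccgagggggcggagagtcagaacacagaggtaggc
Slc1a4: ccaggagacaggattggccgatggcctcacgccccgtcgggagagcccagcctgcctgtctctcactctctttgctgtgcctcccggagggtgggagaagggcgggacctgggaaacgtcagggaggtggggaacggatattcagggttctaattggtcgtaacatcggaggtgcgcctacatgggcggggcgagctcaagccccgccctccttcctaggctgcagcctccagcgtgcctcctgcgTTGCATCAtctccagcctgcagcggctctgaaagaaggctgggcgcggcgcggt
Slc7a11: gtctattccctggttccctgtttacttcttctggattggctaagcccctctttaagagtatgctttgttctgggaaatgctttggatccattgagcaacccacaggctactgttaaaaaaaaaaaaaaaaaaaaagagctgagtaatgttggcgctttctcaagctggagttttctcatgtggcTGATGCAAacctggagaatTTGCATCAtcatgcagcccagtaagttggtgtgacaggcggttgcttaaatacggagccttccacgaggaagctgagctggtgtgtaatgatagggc
In the window shown for Slc7a7 the element begins 1 base before the start, and in the overlapping window of another start it begins 243 bases before. In Slc1a4 it begins 4 bases before the start and reads on the opposite strand. Slc7a11 holds it 2 times, beginning 66 and 47 bases before the start, the second on the opposite strand. In a list of genes of the ATF4 response and of amino acid synthesis, 5 of 25 with a window hold the same letters. Their signals did not run one way with OSM, with Nupr1 at 1248 in +OSM cells and 862 in −OSM cells, Vldlr at 1652 and 1116, Chac1 at 443 and 583, Atf3 at 176 and 277, and Fgf21 at 291 and 1596, each in this order. The element of STAT factors, TTCNNNGAA, which reads alike on both strands, was in 8.30% of all windows and in 5 of the 67 windows, those of Slc7a11, Slc7a1, Slc38a9, Slc1a3 and Slc36a1os. In Slc7a11 it lies 183 bases before the start and does not overlap the other element. Neither gene called higher with OSM holds it in this window.

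Lower with OSM were carriers with low signals. Slc6a2, the noradrenaline carrier, had 41 in +OSM cells, 118 in −OSM cells and 55 in fresh MuSC, 2.88-fold lower with OSM than without. Slc6a19, a carrier of neutral amino acids known from gut and kidney, had 74, 166 and 64 in the same order and was 2.24-fold lower. For both genes −OSM cells was the array with the highest signal, 2.15-fold and 2.59-fold above fresh MuSC. Of the 3 other probe sets of Slc6a2, 1 reached the floor, with 34 in +OSM cells, 43 in −OSM cells and 20 in fresh MuSC, and that of Slc6a19 had 20, 44 and 8. The GABA carrier Slc6a13 had 13 in +OSM cells, 65 in −OSM cells and 111 in fresh MuSC, at least 1.62-fold lower with OSM than without and at least 2.78-fold lower than in fresh MuSC.

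A pair of carriers lay just short of 2-fold higher with OSM. Slc38a10, whose substrates are less well known, had signals of 1400 in +OSM cells, 746 in −OSM cells and 1667 in fresh MuSC, and Slc36a4, described in human as a carrier of proline and tryptophan, had 297, 165 and 428. The level with OSM was 1.88-fold and 1.80-fold above −OSM cells, in this order of genes, and −OSM cells was 2.23-fold and 2.59-fold below fresh MuSC. For both genes +OSM cells thus lay between the other arrays. The probe sets of Slc38a10 disagreed, since 3 of the 6 others were higher with OSM, 2 were lower and 1 was under the floor. With the arrays centred on their medians, the log2 ratio of −OSM cells to fresh MuSC was -0.60 for Slc38a10 and -0.82 for Slc36a4, both within 2-fold, whereas that of +OSM cells to −OSM cells was 1.08 and 1.02, both past 2-fold. The median signal over its probe sets, taken on each array apart, gave Slc38a10 a log2 ratio of 0.00 in either comparison. A different probe set stood at the median in −OSM cells, so this value does not show an unchanged gene. The 3 probe sets of highest signal had log2 ratios of 0.91, 0.65 and 1.02 for +OSM cells over −OSM cells. For −OSM cells over fresh MuSC they had -1.16, -0.96 and -1.04.

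All 4 measured Slc7 genes grouped here as cationic carriers were lower in +OSM cells than in −OSM cells by the probe set used, though none by 2-fold. What each of them carries was not measured. Of all measured genes, 5662 of 11271 were lower. Signals were low for Slc7a3 (80 in +OSM cells and 143 in −OSM cells) and Slc7a4 (71 and 121). A second probe set of Slc7a2 had 56 and 55, and so was not lower. The median log2 ratio of the 4 genes was -0.62, and it was -0.45 with the arrays centred and -0.60 after quantile normalization. The 3 Slc43 carriers lay on the other side, with a median of 0.30, and 0.47 and 0.23 under those scalings. A second probe set of Slc43a2 was lower with OSM, at 113 in +OSM cells and 137 in −OSM cells. With OSM the committed myogenic markers were lower (sums of 28984 in +OSM cells and 53547 in −OSM cells), and fibroblast markers were higher (4 of 4 genes above the floor and a sum of 623 in +OSM cells, against 1 of 4 and 128 in −OSM cells). The part of these cells in the differences was not tested.

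**Figure D2:**
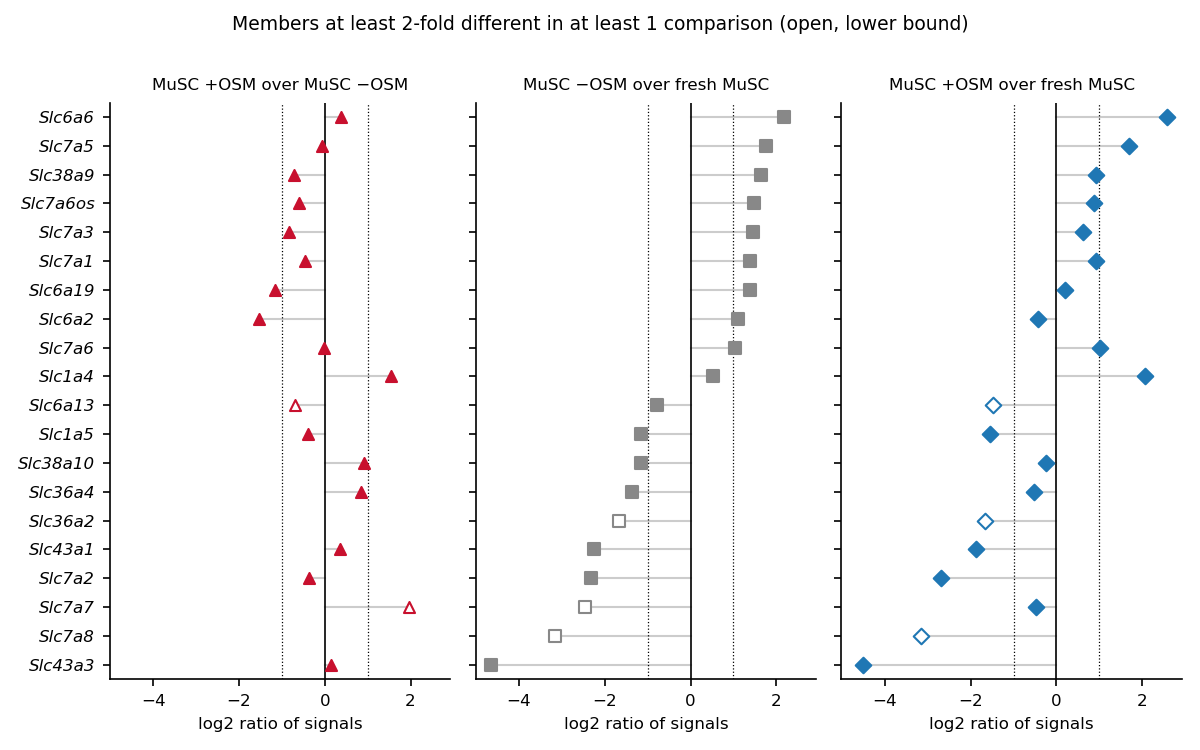
Log2 ratio of the 20 genes of the 7 families at least 2-fold different in at least 1 comparison, for MuSC +OSM over MuSC −OSM, MuSC −OSM over fresh MuSC and MuSC +OSM over fresh MuSC, with open symbols for lower bounds and dotted lines at 2-fold. Slc7a7 and Slc1a4 stand highest in the first panel, at 1.97 and 1.54, and Slc43a3 lowest in both others, at -4.65 and -4.50.

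Set against fresh cells, culture went with larger differences. In −OSM cells, 9 of 41 measured genes were at least 2-fold higher than in fresh MuSC and 9 were lower, or 22.0% each way, against 15.0% of all measured genes higher and 20.4% lower. The median log2 ratio was -0.11, against -0.14 for all genes. In +OSM cells, 4 of 41 were higher than in fresh MuSC (9.76%, against 13.8% of all genes) and 7 were lower (17.1%, against 17.2%), with a median of -0.26, against -0.14 for all genes. These comparisons share the fresh array, so that what was particular to it enters both. Likewise the −OSM array enters both the comparison between the cultures and that of −OSM cells with fresh MuSC. This limits genes with their highest or lowest signal in −OSM cells, such as Slc7a7, Slc6a2, Slc6a19, Slc38a10 and Slc36a4. Centring the arrays moved the medians of all genes to 0.37 in −OSM cells and 0.58 in +OSM cells, both over fresh MuSC, and those of the families to 0.49 and 0.48, so the sign of these medians depended on the scaling.

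The light chains divided. Slc7a5, the leucine carrier that pairs with Slc3a2, had signals of 2576 in +OSM cells, 2696 in −OSM cells and 791 in fresh MuSC, 3.26-fold and 3.41-fold higher in the cultures than in fresh cells. The heavy chain Slc3a2 had 1598, 2050 and 1640 in the same order, within 1.28-fold on all arrays. Slc7a8, the other light chain for large neutral amino acids, ran against Slc7a5. It had 23 in +OSM cells, 30 in −OSM cells and 357 in fresh MuSC, and so was at least 8.93-fold lower in either culture. Slc7a6, which exchanges arginine for glutamine, had 354, 359 and 174, at 2.03-fold and 2.06-fold higher just past the threshold, and a second probe set had 359, 343 and 182. Its neighbour Slc7a6os, a gene with a protein product of its own, had 93, 142 and 51, and was 2.78-fold higher in −OSM cells than in fresh MuSC.

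Cationic carriers divided likewise. Slc7a1, the general carrier of arginine and lysine, had 1416 in +OSM cells, 1959 in −OSM cells and 750 in fresh MuSC. Slc7a3 had 80, 143 and 52. These levels were 2.61-fold and 2.75-fold higher in −OSM cells than in fresh MuSC, and 1.89-fold and 1.54-fold higher in +OSM cells. Slc7a2, a carrier of the same amino acids that is known from liver and from activated macrophages, ran the other way, with 214 in +OSM cells, 274 in −OSM cells and 1375 in fresh MuSC. It was 6.43-fold lower in +OSM cells and 5.02-fold lower in −OSM cells than in fresh MuSC. Its other probe sets above the floor had 56, 55 and 170, and 26, 34 and 87, in the same order and direction.

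The highest ratio of any gene of the 7 families over fresh MuSC was that of Slc6a6, the taurine carrier. It had signals of 4744 in +OSM cells, 3623 in −OSM cells and 800 in fresh MuSC, 5.93-fold and 4.53-fold higher in the cultures. A second probe set had 1261, 2428 and 384, so both put the cultures above fresh MuSC but disagreed on OSM, at 1.31-fold higher and 1.93-fold lower with it. Slc6a8, which carries creatine, had 882, 809 and 529 and stayed within 2-fold. Its second probe set, with 435, 509 and 132, was 3.30-fold higher in +OSM cells and 3.86-fold higher in −OSM cells than in fresh MuSC.

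Of the Slc38 family, Slc38a9, the lysosomal carrier through which mTORC1 senses arginine, had 267 in +OSM cells, 437 in −OSM cells and 140 in fresh MuSC. It was 3.12-fold higher in −OSM cells and 1.91-fold higher in +OSM cells than in fresh MuSC. Of its 6 other probe sets 5 were higher in −OSM cells too, the exception having 104, 55 and 96. Slc38a2, a glutamine and alanine carrier known to be induced when amino acids run short, had 4134 in +OSM cells, 4497 in −OSM cells and 6257 in fresh MuSC and lay within 2-fold. Another of its probe sets had 290, 273 and 1697, which is 5.85-fold lower in +OSM cells and 6.22-fold lower in −OSM cells than in fresh MuSC. The third had 49, 54 and 111 and was 2.27-fold and 2.06-fold lower, so the probe set of highest signal alone put the gene within 2-fold. Probe sets of one gene can read different transcript ends, and which of these stands for the carrier was not tested.

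Lower in both cultures than in fresh MuSC were 6 genes, and Slc43a3 differed most. This member of Slc43, known as a carrier of purine nucleobases rather than of amino acids, had 111 in +OSM cells, 100 in −OSM cells and 2513 in fresh MuSC. The levels were 22.6-fold and 25.1-fold lower in the cultures, and the second of these ratios was number 80 from the lowest of 12755 genes. Slc43a1, which carries leucine and other large neutral amino acids, had 112, 87 and 413, at 3.69-fold and 4.75-fold lower. Slc43a2 had 357, 289 and 458 and lay within 2-fold, so the 3 genes of this family all had their highest signal in fresh MuSC. Their median log2 ratio over fresh MuSC was -1.88 in +OSM cells and -2.25 in −OSM cells, and it stayed below zero with the arrays centred and after quantile normalization.

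The others of the 6 were Slc7a2 and Slc7a8, described above, Slc1a5 and Slc36a2. Slc1a5, the main glutamine carrier of many growing cells, had 72 in +OSM cells, 95 in −OSM cells and 211 in fresh MuSC, at 2.93-fold and 2.22-fold lower in the cultures. Its second probe set had 22, 35 and 142. With the arrays centred on their medians the log2 ratios of Slc1a5 over fresh MuSC were -0.82 in +OSM cells and -0.59 in −OSM cells, both within 2-fold. Slc36a2, a carrier of proline and glycine, had 31, 28 and 127 and was at least 3.18-fold lower in either culture.

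Markers of fibroblasts, endothelium and Schwann cells were higher in fresh MuSC, as these genes were. So was the sum of satellite cell markers, at 4736 in +OSM cells, 3753 in −OSM cells and 23566 in fresh MuSC. Of these markers Itga7 alone was lower in fresh MuSC. Fibroblast markers, all 4 above the floor there, summed to 623 in +OSM cells, 128 in −OSM cells and 13862 in fresh MuSC. Endothelial markers had 0, 1 and 3 of 4 genes above the floor and sums of 79, 80 and 1122, with the defining marker Pecam1 at 2, 4 and 4. Schwann cell and glial markers, of which 3 of 5 were read, had 2, 1 and 3 above the floor and sums of 185, 98 and 4111. Leukocyte markers summed to 38, 90 and 81 with 0, 0 and 1 of 5 above the floor, and Ptprc was at 7, 2 and 1. Pericyte and smooth muscle markers did not run together, with 3, 2 and 4 of 4 above the floor and sums of 13505, 19471 and 8893 that came mostly from Acta2 (13114, 19053 and 6543). Rgs5 had 59, 35 and 1687 and Myh11 had 1, 2 and 301, both highest in fresh MuSC. The part of other cells in the higher levels of fresh MuSC was not tested, and neither was that of digestion and sorting.

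Of the 12 genes above the floor and within 2-fold on all arrays, the 6 with the highest mean signals were Slc38a2, Slc3a2, Slc6a8, Slc38a1, Slc43a2 and Slc38a6. Slc38a1, a glutamine carrier, had 525 in +OSM cells, 533 in −OSM cells and 363 in fresh MuSC. Slc38a6 had 364, 269 and 457 in the same order. With 1 array a condition, differences of this size have no measured error. Among the 12, second probe sets of Slc38a4 and Slc6a9 were past 2-fold, like those of Slc38a2 and Slc6a8 above. That of Slc38a4 had 60 in +OSM cells, 242 in −OSM cells and 6 in fresh MuSC. It was 4.03-fold lower with OSM than without and at least 6.05-fold higher in −OSM cells than in fresh MuSC. That of Slc6a9 had 42, 108 and 39, at 2.57-fold lower and at least 2.7-fold higher in these comparisons.

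**Figure D3:**
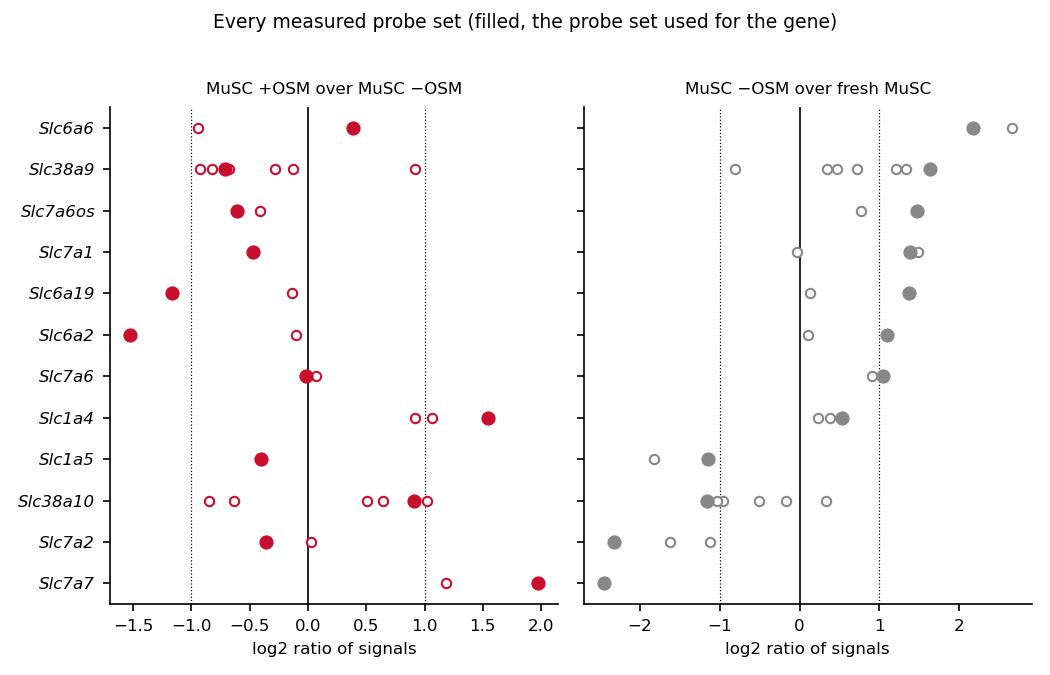
Log2 ratio of every measured probe set of the named genes that have more than 1, with the probe set used for the gene filled and the others open, for MuSC +OSM over MuSC −OSM and MuSC −OSM over fresh MuSC. In the first panel Slc6a6 has its probe sets on both sides of zero, whereas all those of Slc1a4 and Slc7a7 lie to the right.

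More than 1 probe set was present for 32 of the 63 genes, which gives a second reading on the same array but not a replicate of the condition. Among the genes called at 2-fold for +OSM cells over −OSM cells, 5 of 5 other measured probe sets had the same direction and 2 were past 2-fold. For −OSM cells over fresh MuSC these counts were 18 and 8 of 21, and for +OSM cells over fresh MuSC 7 and 6 of 7. Across all genes, a pair of probe sets above the floor differed by a median of 0.32 on the log2 scale for +OSM cells over −OSM cells (4331 genes), 0.46 for −OSM cells over fresh MuSC (4331 genes) and 0.43 for +OSM cells over fresh MuSC (4367 genes). For 14, 12 and 11 genes of the families the medians were 0.41, 0.39 and 0.79, in this order. The 90th percentiles were 0.86, 1.37 and 1.24 across all genes and 1.26, 1.33 and 1.08 in the families, so that among the families a 2-fold difference from a single probe set lies within what probe sets of a gene can differ by in all 3 comparisons.

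Genes that use or sense amino acids were listed apart from the carriers. All aminoacyl-tRNA synthetases were measured, and 12 of 20 were at least 2-fold higher in −OSM cells than in fresh MuSC with 0 lower, against 15.0% and 20.4% of all genes, at a median log2 ratio of 1.19, against -0.14 for all genes. In +OSM cells 9 of 20 were higher and 0 lower than in fresh MuSC (median 0.78), against 13.8% and 17.2% of all genes. The glycyl-tRNA synthetase Gars had signals of 3968 in +OSM cells, 3611 in −OSM cells and 897 in fresh MuSC. Iars and Nars, for isoleucine and asparagine, were 3.49-fold and 3.32-fold higher in −OSM cells than in fresh MuSC. Between the cultures 0 of the 20 were higher with OSM and 1 was lower, against 6.07% and 4.39% of all genes. The lower gene was the mitochondrial Fars2, with 173 in +OSM cells and 381 in −OSM cells. The list had a median of -0.30.

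The ATF4 response and amino acid synthesis list had 14 of 27 genes at least 2-fold higher and 6 lower in −OSM cells than in fresh MuSC (median 1.16), and 14 higher and 4 lower in +OSM cells (median 1.13). Of all genes 15.0% were higher and 20.4% lower in −OSM cells, and 13.8% and 17.2% in +OSM cells, so it was the higher genes of the list that exceeded the share of all genes. Asns, which makes asparagine, had 2516 in +OSM cells, 3926 in −OSM cells and 139 in fresh MuSC, 28.2-fold higher in −OSM cells than in fresh MuSC. The stress factor Atf3 ran the other way, at 176, 277 and 10687. With OSM, 2 of 26 genes were higher and 3 lower, against 6.07% and 4.39% of all genes. Higher were Ddit4 (1769 in +OSM cells and 503 in −OSM cells), an inhibitor of mTORC1, and Cebpb (3714 and 1144), a transcription factor. The largest difference of the list with OSM was that of Fgf21, which was lower, at 291 in +OSM cells and 1596 in −OSM cells. Over fresh MuSC, the medians of this list and of the synthetases were above zero as deposited, with the arrays centred and after quantile normalization.

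Genes of mTORC1 and of amino acid sensing had 9 of 34 higher and 2 lower in −OSM cells than in fresh MuSC (median 0.36), and 4 higher and 3 lower in +OSM cells (median 0.34). Over all genes 15.0% were higher and 20.4% lower in −OSM cells than in fresh MuSC, and 13.8% and 17.2% in +OSM cells, so that the 4 of 34 lie near the share of all genes. Rragd, a Rag GTPase that brings mTORC1 to the lysosome, had 797 in +OSM cells, 852 in −OSM cells and 148 in fresh MuSC, and Sesn1, a sestrin, had 247, 399 and 1521. With OSM 0 were higher and 1 was lower, against 6.07% and 4.39% of all genes. That gene was Rptor, a subunit of mTORC1, at 284 in +OSM cells and 634 in −OSM cells.

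Of genes of glutamine, branched-chain amino acid, creatine, taurine and glutathione metabolism, 3 of 26 were at least 2-fold higher and 1 was lower with OSM (median 0.15), against 6.07% and 4.39% of all genes and a median of -0.01. Gclm, the regulatory subunit of the first enzyme of glutathione synthesis, had 1878 in +OSM cells, 697 in −OSM cells and 244 in fresh MuSC, 2.69-fold higher with OSM than without. The taurine synthesis enzyme Csad had 105, 33 and 274 and was at least 2.62-fold higher with OSM. Lower with OSM was the creatine kinase Ckb, at 835 in +OSM cells and 2928 in −OSM cells. Over fresh MuSC, 8 of 28 genes were higher and 4 lower in −OSM cells (median 0.22, against 15.0% and 20.4% of all genes), and 9 of 26 were higher and 3 lower in +OSM cells (median 0.22, against 13.8% and 17.2%). Glul, which makes glutamine, was 9.42-fold lower in −OSM cells than in fresh MuSC, at 1484 in +OSM cells, 931 in −OSM cells and 8774 in fresh MuSC.

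Amino acid carriers outside the 7 families had 0 of 17 measured genes higher and 1 lower with OSM (all genes, 6.07% and 4.39%). That gene was Mfsd12, a cysteine carrier of melanosomes and lysosomes, at 59 in +OSM cells and 136 in −OSM cells. Against fresh MuSC, 4 of 18 were higher and 3 lower in −OSM cells, against 15.0% and 20.4% of all genes, and 1 of 17 was higher and 5 lower in +OSM cells, against 13.8% and 17.2%. The peptide carrier Slc15a2 had 44 in +OSM cells, 46 in −OSM cells and 360 in fresh MuSC, whereas Slc66a1, which exports cationic amino acids from lysosomes, had 156, 158 and 45.

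**Figure D4:**
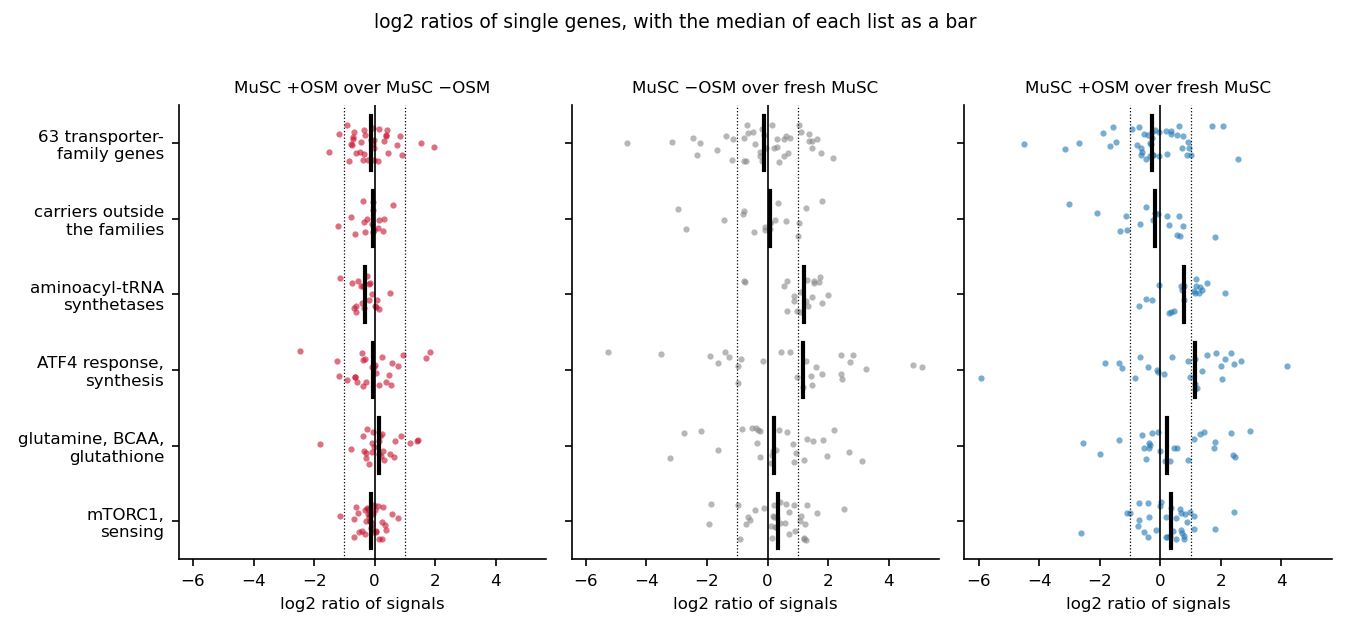
Log2 ratio of every measured gene of the 7 transporter families and of 5 lists of amino acid genes, with a black bar at the median of each list and dotted lines at 2-fold, for the same 3 comparisons. In the middle and right panels the medians of the synthetases (1.19 and 0.78) and of the ATF4 list (1.16 and 1.13) lie to the right of those of the transporter families (-0.11 and -0.26).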

How the data were processed

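RNA of FACS-sorted MuSC was hybridized to 3 Affymetrix MOE_430_2 arrays, 1 each for MuSC +OSM, MuSC −OSM and fresh MuSC, with groups taken from the labels. By the study's methods the RNA was amplified with 3′ IVT Express reagents. The authors deposited MAS5 signal intensity, linear and scaled per array, with no MAS5 version stated.

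Of 45037 probe sets (64 controls left out), 34945 naming 1 gene in the array annotation were used, and 932 naming several genes were not, 1 of them naming a gene of the 7 families. All 63 genes matched RefSeq by ID and symbol. For each gene the probe set with the highest mean over the arrays was used. Signals were raised to 40 before log2 ratios were taken, and a gene was measured where 1 of the arrays compared lay above 40. No test was run, since each group has 1 array. The steps were checked on simulated folds in genes well above the floor, which did not cover signals near it. The largest simulated decrease was left out of the pass rule. Python 3.11.15, numpy 2.4.6, pandas 2.3.3 and matplotlib 3.10.9 were used. RefSeq windows of 300 bases were searched for 4 motifs, of which AP-1 (TGACTCA) was in 5.20% of all windows and 6 of 67 windows of the families, and the E-box (CACGTG) in 7.15% and 9 of 67.

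Named were all genes of the families at least 2-fold different in 1 comparison with a signal of at least 100, the 6 highest of the rest, and up to 3 genes of each list with the largest ratios. Slc7a11, Slc1a3, Slc36a1os, Nupr1, Vldlr and Chac1 were named for their motif after their values were seen. Slc38a4, Slc6a9 and Slc7a4 were also named after their values were seen, for second probe sets or low signals. The genes and lists were chosen with earlier results of these data known. Alternatives were the scaling, the floor, the probe set and the fold threshold.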

Additional observations from a re-analysis of the deposited data

How the results depend on the processing

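Each condition had 1 array, so no array could be left out. No paired analysis was possible because each group holds 1 sample. Of 33 calls of at least 2-fold for named genes, 23 were kept under all alternatives that gave a value, and none changed direction. Kept were 28 with the arrays centred on their medians, 32 after quantile normalization, 33 with the floor at 20, 29 with the median over probe sets and 31 without probe sets shared between transcripts or genes. A lower floor can only leave a fold unchanged or enlarge it, so the 33 could not have been lost. With the floor at the 75th percentile of all signals (183), 16 were kept, 7 lay within 2-fold and the others gave no value. Calls without a value included those of Slc7a7 and Slc6a2 in +OSM cells over −OSM cells. Slc7a7 also gave none without shared probe sets, and Slc6a2 none with the median over probe sets. A missing value did not count against a call, so these calls passed fewer alternatives. Within 2-fold with the floor at 183 were, among others, Slc7a7 (-0.26) and Slc7a8 (-0.96) in −OSM cells over fresh MuSC. Their signals in fresh MuSC, 219 and 357, lie less than 2-fold above that floor. These ratios thus could not reach 2-fold and are lower bounds. Slc6a19 in +OSM cells over −OSM cells was at -0.996 with the arrays centred. Slc38a10 in −OSM cells over fresh MuSC was at 0.00 with the median over probe sets, which came from different probe sets on the 2 arrays.

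For +OSM cells over −OSM cells, the counts of 2 higher and 2 lower became 5 higher with the arrays centred, 1 and 0 with the 75th percentile floor, 6 lower with the floor at 20, 5 and 10 at 1.5-fold, and 1 and 0 at 3-fold. The median turned to 0.00449 with the arrays centred. For −OSM cells over fresh MuSC, 9 higher and 9 lower became 14 higher with the arrays centred, 4 and 5 with the 75th percentile floor, 14 lower at 1.5-fold and 3 higher at 3-fold. The median turned to 0.49 with the arrays centred and 0.46 after quantile normalization. For +OSM cells over fresh MuSC, 4 higher and 7 lower became 13 higher with the arrays centred, 7 higher after quantile normalization, 3 lower with the 75th percentile floor, 14 lower with the floor at 20, and 10 and 13 at 1.5-fold. The median turned to 0.48 with the arrays centred. Higher genes made up 50%, 50% and 36.4% of the calls as deposited, in the order of comparisons above, 71.4%, 70% and 68.4% with the arrays centred, and 40%, 60% and 50% after quantile normalization. Over all genes these shares were 58.0%, 42.4% and 44.5%, then 72.0%, 70.2% and 80.4%, and 54.4%, 53.4% and 54.8%, so the shift with centring was common to the array. Signals near the floor, such as those of Slc7a11, Slc6a2 and Slc6a13, limit what these arrays can show.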
